A study of Mus musculus with 9 samples.

Results

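The IFIT and IFITM genes encode small families of IFN-induced antiviral proteins. IFIT proteins lie in the cytosol, bind viral RNA by its 5′ end or its sequence, and hold back its translation, whereas IFITM proteins lie in the plasma membrane and endosomes and hinder the fusion of viral envelopes with them. Type I IFN induces both families through the receptor IFNAR and the transcription factor complex ISGF3, which binds the IFN-stimulated response element (ISRE) of their promoters, and pDCs are a main source of that IFN after TLR7 or TLR9 ligation. The 10 genes described here were chosen by symbol from the 52550 genes listed for the library. Of these, 6 were IFIT genes (*Ifit1*, *Ifit2*, *Ifit3*, *Ifit3b*, *Ifit1bl1* and *Ifit1bl2*) and 4 were IFITM genes (*Ifitm1*, *Ifitm2*, *Ifitm3* and *Ifitm6*).

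The library, A/A replicate 1, was made from splenic pDCs of C57BL/6 mice homozygous for a knocked-in arginine-to-histidine codon of *Ncf1*, a subunit of the NADPH oxidase NOX2. The mice were described as female and were 10 to 12 weeks of age. Cells sorted as CD11c-intermediate, SiglecH+ and PDCA1+ were cultured for 12 hours with R848, a synthetic TLR7 ligand, at 10 μg/mL. The series had 9 samples, with 3 A/A samples, 3 heterozygous (G/A) and 3 WT (G/G). All but A/A replicate 1, 8 samples, were not analysed here, so no value has a replicate error and neither the effect of genotype nor that of R848 was measured. Each level in CPM is the number of reads on the gene per 1000000 of the 31408298 reads of the library, with Wilson 95% confidence intervals that cover counting error only. In RNA from a whole sorted sample, fewer cells that express a gene and less RNA per cell cannot be told apart.

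The library carried the markers of pDCs. All 11 genes of the pDC marker list had reads, with a summed level of 10293 CPM, and *Irf8*, *Spib* and *Ly6d* had the most reads. Of the 7 conventional DC markers, 6 had reads, with a sum of 1959 CPM and *Ccl22* as the most abundant, while *Cd209a* was at 0. Those with at least 100 CPM were *Ccl22*, *Fscn1* and *Zbtb46*. The T cell markers *Cd3e*, *Cd3d*, *Cd3g* and *Bcl11b* and the NK cell markers *Ncr1*, *Klrb1c* and *Eomes* were all at 0, and the 5 B cell markers summed to 10.4 CPM, led by *Cd79b*, with *Pax5* at 0. The 7 macrophage markers summed to 297 CPM, mostly from *Fcgr1*, and the 5 monocyte markers to 1533 CPM, mostly from *Ly6c2*, with *Vcan* at 0. The monocyte markers *Lyz2* and *Ccr2* also had at least 100 CPM. The 6 neutrophil markers summed to 45.6 CPM, led by *Csf3r*, with *Ly6g*, *Mmp8* and *Retnlg* at 0. Of the erythroid markers, *Hba-a1* had 2.83 CPM and *Hbb-bs* was at 0. The Y-linked genes *Ddx3y* and *Eif2s3y* had 102 and 86.1 CPM and *Xist* was at 0, which does not match the sex given for the mice. The share of the IFIT and IFITM reads that came from each cell type was not tested.

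The 10 IFIT and IFITM genes held 461499 reads, or 14694 CPM (95% CI, 14652 to 14736), which is 1.47% of all reads. The IFIT genes had 11969 CPM (95% CI, 11930 to 12007) and the IFITM genes 2725 CPM (95% CI, 2707 to 2743). Thus 81.5% of the reads of the 10 genes (95% CI, 81.3% to 81.6%) fell on IFIT genes. When each gene was scaled by its exon length, a choice made after seeing the data, the IFIT share was 54.3%. All 10 had more reads than the floor of 3, and 7 of the 10 had at least 100 CPM, a level reached by 10.2% of the 17664 genes with reads and by 3.42% of all genes listed. These 7 were 5 of the 6 IFIT genes and 2 of the 4 IFITM genes. *Ifit1bl2*, *Ifitm1* and *Ifitm6* were the exceptions.

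Since a long transcript yields more fragments than a short one, genes were compared with each other per kilobase of annotated exon. The median of the 10 genes was 18406 reads per kb, and the median of all genes with reads was 59.6. In descending order the genes were *Ifitm3*, *Ifit3*, *Ifit2*, *Ifit1*, *Ifit3b*, *Ifit1bl1*, *Ifitm2*, *Ifitm6*, *Ifitm1* and *Ifit1bl2*. The intervals of neighbours in this order did not overlap except for those of the last 2, *Ifitm1* and *Ifit1bl2*, whose ratio was 1.32 (95% CI, 1.04 to 1.65). The closest neighbours, *Ifit1* and *Ifit3b*, differed by 1.05-fold (95% CI, 1.04 to 1.06). This gap is smaller than the 16.0% of 150-base windows of *Ifit3b* that also occur in *Ifit3*, so their order is uncertain beyond counting error. *Ifit3b* and *Ifit1bl1* differed by 1.16-fold (95% CI, 1.14 to 1.18), a gap close to that share, so their order is also uncertain. By CPM, in which length counts, *Ifit2* came before *Ifit3* and *Ifitm3*, and *Ifit1bl2* before *Ifitm1*. Per kilobase of coding sequence alone, *Ifit2* also came before *Ifit3*. The families were therefore not 2 separate tiers, as an IFITM gene headed the order per kilobase and an IFIT gene closed it.

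**Figure D1:**
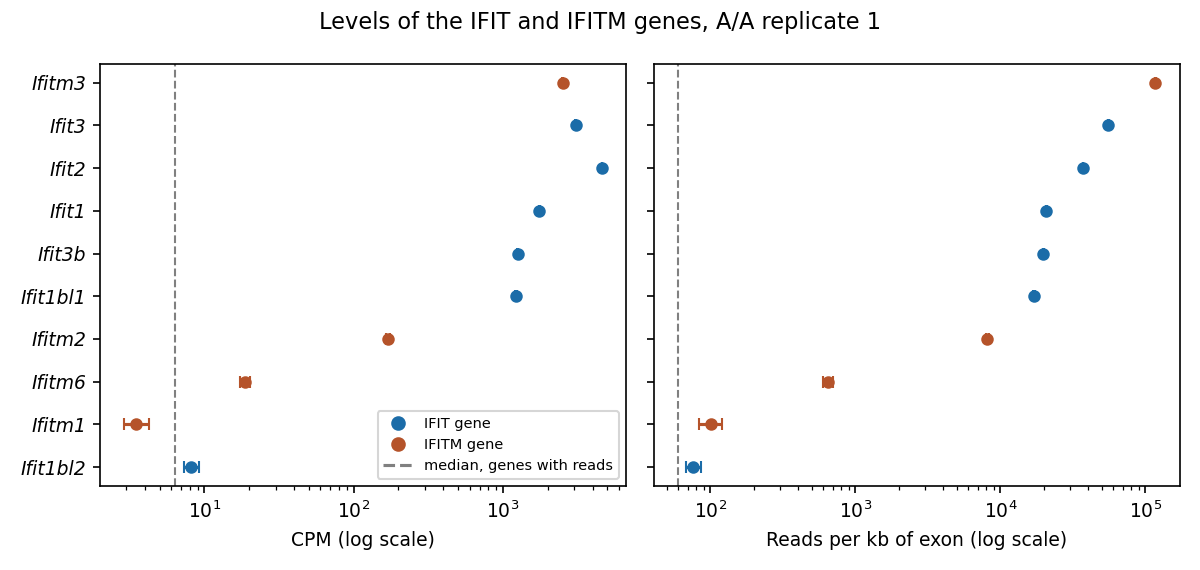
Levels of the 10 IFIT and IFITM genes in A/A replicate 1 as CPM (left) and as reads per kb of annotated exon (right), both on log axes, with bars for the Wilson 95% confidence interval of counting error (often smaller than the point) and dashed lines at the median of the genes with reads. From *Ifitm3* down to *Ifitm2* the points on the right lie at or above 8150 reads per kb, and those of *Ifitm6*, *Ifitm1* and *Ifit1bl2* lie at 650 or below.

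*Ifit1* (ENSMUSG00000034459.8, chr19:34640871-34650009, plus strand of GRCm38) encodes the family member that binds RNA whose cap lacks the 2′-O-methyl mark of self mRNA. Its level was 1754 CPM (95% CI, 1740 to 1769) from 55095 reads, which placed it at percentile 99.6 of the genes with reads. Per kilobase of exon it had 20744 reads, and it was thus among the most abundant transcripts of the library. *Ifit2* (ENSMUSG00000045932.12, chr19:34550694-34576419, plus strand) encodes an RNA-binding partner that forms complexes with the other IFIT proteins. It had 145648 reads, or 4637 CPM (95% CI, 4614 to 4661), and 37089 reads per kb. *Ifit2* thus held 31.6% of the reads of the 10 genes, and stood 1.79-fold above *Ifit1* per kilobase (95% CI, 1.77 to 1.81).

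*Ifit3* and *Ifit3b* are the copies of the gene for IFIT3, which in other species is known to bind and stabilise IFIT1. *Ifit3* (ENSMUSG00000074896.3, chr19:34583531-34588731, plus strand) was counted at 96855 reads and 3084 CPM (95% CI, 3064 to 3103). *Ifit3b* (ENSMUSG00000062488.9, chr19:34607970-34613401, plus strand) was counted at 39544 reads and 1259 CPM (95% CI, 1247 to 1271). Per kilobase of exon *Ifit3* had 55504 reads and *Ifit3b* 19772, a ratio of 2.81 (95% CI, 2.77 to 2.84). Their coding sequences, each of 1209 bases, differed at 11 positions and were 99.1% identical, with a longest identical run of 329 bases. Of the 150-base windows of their transcripts, 150 bases being the read length, 18.5% of those of *Ifit3* and 16.0% of those of *Ifit3b* occurred identically in the other gene. With even coverage, 17963 of the *Ifit3* reads would lie on such windows, so reads could have been split between the copies and the ratio is uncertain to that extent. How the authors' counting treated reads that fit both copies is not given in the sources used here.

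*Ifit1bl1* and *Ifit1bl2* are named for their likeness to *Ifit1*. Their coding sequences were 87.4% identical to each other and 73.6% and 73.8% identical to that of *Ifit1*. *Ifit1bl1* (ENSMUSG00000079339.6, chr19:34592888-34601968, minus strand) reached 1226 CPM (95% CI, 1214 to 1238) with 38511 reads, which is percentile 99.4. *Ifit1bl2* (ENSMUSG00000067297.4, chr19:34617049-34640743, minus strand) reached only 8.18 CPM (95% CI, 7.24 to 9.25) with 257 reads, which is percentile 53.1. This was the only IFIT gene near the middle of the genes with reads, and among genes with at least 10 reads it stood at percentile 42.7. Per kilobase of exon *Ifit1bl1* exceeded *Ifit1bl2* 223-fold (95% CI, 197 to 253) and *Ifit1* exceeded it 272-fold (95% CI, 240 to 308). Per kilobase of coding sequence alone, these ratios were 149 and 216.

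The reads of *Ifit1bl2* were themselves uncertain. It shared 0.963% of its 150-base windows with *Ifit1*, and the longest identical run of the coding sequences was 180 bases. With even coverage, 681 of the *Ifit1* reads would lie on the windows shared with *Ifit1bl2*, more than the 257 reads counted on *Ifit1bl2* in all. How many of the 257 came from *Ifit1* was not tested. No 150-base window of *Ifit2* or *Ifit1bl1* occurred in a transcript of another gene.

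The IFIT genes also shared their exon layout. In *Ifit1*, *Ifit2*, *Ifit3* and *Ifit3b* the coding sequence began with 5 bases in a first coding exon and continued in a second that held 99.6% of it. In *Ifit1bl1* and *Ifit1bl2* the first coding exon held 32 bases. The coding identity of *Ifit2* to the other 5 genes was 54.4% to 56.0%, and that of *Ifit3* and *Ifit3b* to *Ifit1*, *Ifit1bl1* and *Ifit1bl2* was 50.6% to 52.2%.

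Among the IFITM genes, *Ifitm3* (ENSMUSG00000025492.6, chr7:141009586-141010770, minus strand) encodes the member best known for blocking influenza virus in endosomes. It had 79553 reads, or 2533 CPM (95% CI, 2515 to 2551), which was 92.9% of the reads of the 4 IFITM genes. On 678 bases of exon this came to 117335 reads per kb, a density that ranked 10 among the 17632 genes with reads and annotated exons. *Ifitm3* was 2.11-fold above *Ifit3* per kilobase (95% CI, 2.09 to 2.13), although *Ifit3* had more reads.

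*Ifitm2* (ENSMUSG00000060591.9, chr7:140954837-140955987, minus strand), whose product also lies mainly in endosomes, reached 170.0 CPM (95% CI, 165 to 175) with 5338 reads, which is percentile 94.1. Per kilobase *Ifitm3* exceeded it 14.4-fold (95% CI, 14.0 to 14.8). The coding sequences of *Ifitm2* and *Ifitm3* were 75.9% identical, the closest pair among the IFITM genes, and no 150-base window of *Ifitm3* occurred in another gene. Of the exon bases of *Ifitm2*, 40.9% overlapped exons of the predicted gene *Gm45717* on the same strand, and 23.5% of its 150-base windows occurred in that gene, which was at 0. Reads of that stretch could have been left uncounted, so the level of *Ifitm2* is uncertain.

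The remaining IFITM genes were low. *Ifitm6* (ENSMUSG00000059108.4, chr7:141015699-141017924, minus strand) reached 18.7 CPM (95% CI, 17.3 to 20.3) with 588 reads, which is percentile 65.0. With 650 reads per kb it stood at percentile 86.9 per kilobase. *Ifitm1* (ENSMUSG00000025491.14, chr7:140967221-140969825, plus strand), whose product acts mainly at the plasma membrane, reached 3.50 CPM (95% CI, 2.91 to 4.22) with 110 reads, which is percentile 43.3. It was below the median of the genes with reads by CPM, although with 101 reads per kb it stood at percentile 58.9 per kilobase. *Ifitm3* exceeded *Ifitm6* 181-fold (95% CI, 167 to 196) and *Ifitm1* 1167-fold (95% CI, 968 to 1420) per kilobase. Per kilobase of coding sequence alone, the ratio of *Ifitm3* to *Ifitm1* was 560. No 150-base window of *Ifitm1* or *Ifitm6* occurred in another gene.

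Of the family genes outside the 10, *Ifitm5*, the bone member of the family, *Ifitm7* and *Ifitm10* were all at 0, which allows a level of up to 0.0955 CPM, the floor of 3 reads. For *Ifitm5*, which lies next to *Ifitm2*, the floor is 3.92 reads per kb.

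The 6 IFIT genes filled 99316 bases of chromosome 19 with no other listed gene between them. Their order was *Ifit2*, *Ifit3*, *Ifit1bl1*, *Ifit3b*, *Ifit1bl2* and *Ifit1*, so *Ifit1bl2* lay between genes at 19772 and 20744 reads per kb while having 76.3 itself. *Lipa*, which encodes lysosomal acid lipase and lies 23.2 kb before *Ifit2*, had 2108 reads per kb, and *Slc16a12*, 18.4 kb beyond *Ifit1*, was at 0. Of the 10 genes next to the cluster, *Lipa*, *Fas*, *Ch25h*, *Gm26902* and *Pank1* had reads, and *Lipa* was the only one at or above 100 CPM. *Mir107*, *Gm23060*, *Gm27476* and *Gm22082*, annotated as miRNA or snRNA genes, were at 0, and such short RNAs are poorly captured by mRNA libraries.

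The 4 IFITM genes spanned 63088 bases of chromosome 7. *Ifitm6*, at 650 reads per kb, lay 4.93 kb from *Ifitm3*, and *Ifitm1* lay 11.2 kb from *Ifitm2*. Lower and higher genes of the family thus alternated along the chromosome. Of the 12 other genes within and next to the cluster, 3 had reads, namely *Pkp3* with 69.6 CPM, *Sigirr* with 15.2 CPM and *Pgghg* with 13.6 CPM. The predicted genes and pseudogenes *Gm45717*, *Gm7514*, *Gm17387* and *Gm45299* were at 0, as were *Ifitm5*, *Cox8b*, *BC024386*, *Nlrp6* and *B4galnt4*. No exon base of the 10 IFIT and IFITM genes was overlapped by an annotated exon on the opposite strand.

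**Figure D2:**
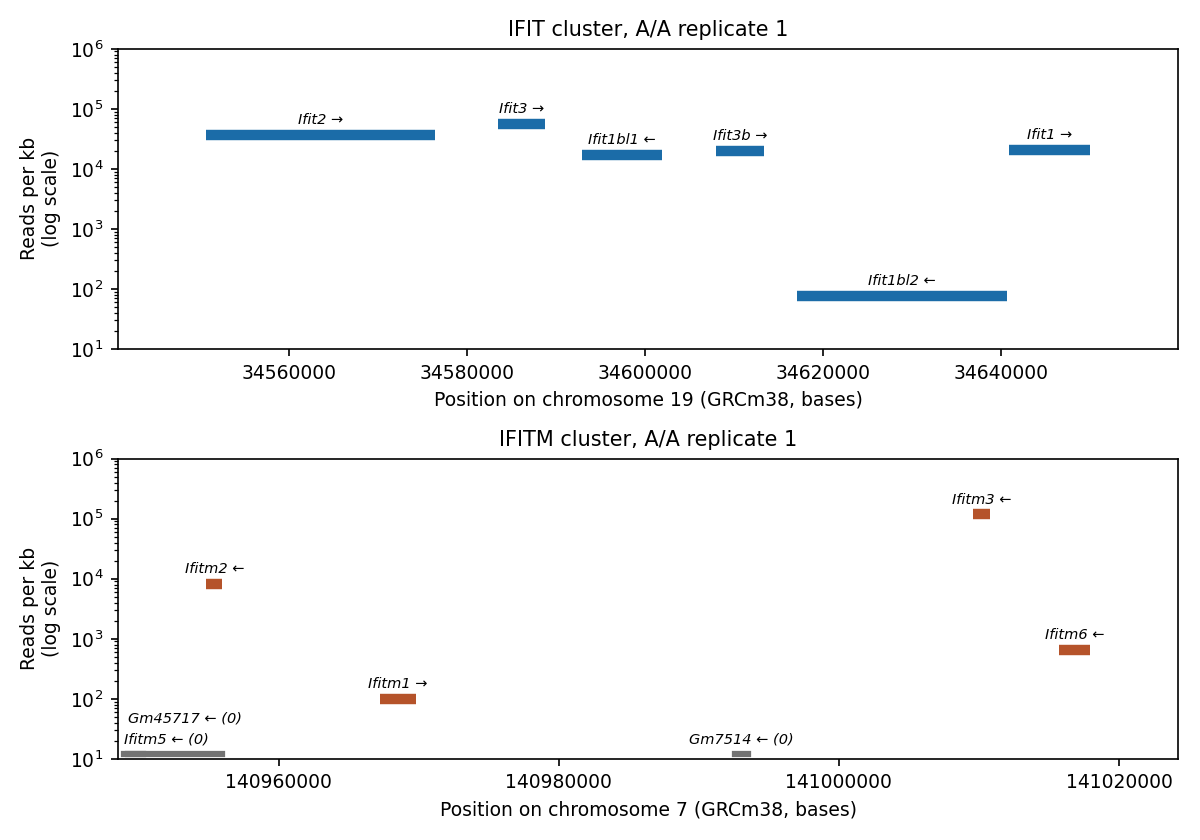
Reads per kb of exon (log axis) against position on GRCm38 for the IFIT cluster of chromosome 19 (top) and the IFITM cluster of chromosome 7 (bottom) in A/A replicate 1, with each line spanning a gene, arrows for the direction of transcription and genes with 0 reads drawn in gray at the foot of the plot. *Ifit1bl2*, at 76.3 reads per kb, lies between *Ifit3b* and *Ifit1*, and the IFITM genes alternate between lower and higher levels.

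The promoters were searched for the core of the ISRE, GAAANNGAA, and for the core of the IFN-γ–activated site (GAS), TTCNNNGAA, where N is any base, on both strands of the 300-base RefSeq windows (GRCm38.p6) from 250 bases before to 50 after each annotated start. All 10 genes were in the table, with 13 windows in all. Of the 10 genes, 7 had the ISRE core in at least 1 window, and 6 of them had it 2 or more times in a single window. These genes are not separate instances. *Ifit1* and *Ifit1bl2* shared the same cores, and the cores of *Ifit3* and *Ifit3b* lay in identical stretches. Of all 27025 genes in the table, 9.76% had the ISRE core in at least 1 window and 0.736% had it 2 or more times in a single window. Matching letters are a description of the sequence and not evidence of a bound site. The GAS core was found in *Ifit2*, *Ifitm3* and *Ifitm6*, against 9.55% of all genes in the table.

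*Ifit1* and *Ifit1bl2* are transcribed away from each other, and their annotated starts were 127 bases apart. This stretch is printed because it precedes the starts of genes whose levels differed 272-fold per kilobase. It held 3 ISRE cores, the first and second of which overlap. Read on the plus strand, the direction of *Ifit1*, the cores began 109, 103 and 84 bases before the RefSeq start of *Ifit1* and appear in capitals as the reverse complement, TTCNNTTTC. For *Ifit1bl2* the same cores began 70, 51 and 45 bases before its outer start. The RefSeq table gave *Ifit1bl2* an additional start at 34629811, whose window held no core. The stretch is chr19:34640744-34640870 of GRCm38, intergenic, plus strand.
*Ifit1* and *Ifit1bl2*: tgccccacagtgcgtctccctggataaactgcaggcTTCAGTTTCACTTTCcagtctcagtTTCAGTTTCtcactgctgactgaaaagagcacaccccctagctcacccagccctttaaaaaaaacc

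The windows of *Ifit3* and *Ifit3b* each held 3 cores, which began 155, 121 and 102 bases before the start of *Ifit3* and 187, 153 and 134 bases before that of *Ifit3b*. The 112-base stretches around these cores are printed to show that they were identical at all 112 positions, while the genes differed 2.81-fold per kilobase. They lie before the annotated starts, on the plus strand of GRCm38, at chr19:34583349-34583460 for *Ifit3* and chr19:34607745-34607856 for *Ifit3b*. Capitals mark the cores. Over the full 250 bases before the RefSeq starts, which are placed differently with respect to the cores, the alignment was 76.6% identical.
*Ifit3*: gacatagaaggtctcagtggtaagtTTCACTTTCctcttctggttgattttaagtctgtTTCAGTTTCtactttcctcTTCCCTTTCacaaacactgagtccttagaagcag
*Ifit3b*: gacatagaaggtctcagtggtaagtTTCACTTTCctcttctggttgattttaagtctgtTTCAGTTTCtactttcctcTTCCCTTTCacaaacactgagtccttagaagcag

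*Ifit1bl1* had 2 RefSeq starts, the inner of which lay in an intron of the GENCODE gene, and each window held 2 cores in opposite orientations. The stretches around them, of 118 bases, were identical at 113 positions (95.8%), so the gene carries similar sequences before both starts, at different distances from them. They are on the minus strand of GRCm38, at chr19:34602053-34602170 before the outer start and chr19:34599431-34599548 before the inner start, with the cores in capitals.
Outer start: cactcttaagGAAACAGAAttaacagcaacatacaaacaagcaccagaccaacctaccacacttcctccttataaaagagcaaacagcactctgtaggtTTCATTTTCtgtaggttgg
Inner start: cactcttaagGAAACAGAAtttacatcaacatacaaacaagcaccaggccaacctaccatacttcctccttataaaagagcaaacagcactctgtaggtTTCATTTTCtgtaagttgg

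Among the IFITM genes, the 2 with at least 100 CPM had the core and the 2 below it did not. *Ifitm2* had 1 core, 46 bases before its start, and *Ifitm3* had 2, which began 2 and 19 bases after its RefSeq start, in the first exon, and lay on either side of a GAS core that overlapped the second of them. The stretches are on the minus strand of GRCm38, at chr7:140955989-140956017, before the start of *Ifitm2*, and chr7:141010715-141010744 in *Ifitm3*, with the ISRE cores in capitals. The windows of *Ifitm1* and *Ifitm6*, which held no ISRE core, were set on RefSeq starts that lay 855 and 1032 bases inside the GENCODE genes, so the sequence next to the outer starts was not searched. *Ifit2*, the member with the most reads, had no ISRE core in either of its windows. Their starts lay 19.7 and 19.3 kb before its first coding base, and the sequence nearer to that base was not searched. In all, 6 of the 7 genes with at least 100 CPM and 1 of the 3 below it, *Ifit1bl2*, had the core in a window searched. The start of *Ifit1bl2* with the cores lay 11.0 kb before its first coding base, and the start without them lay 52 bases before it.
*Ifitm2*: ccaccaacagGAAAAGGAAattgctagag
*Ifitm3*: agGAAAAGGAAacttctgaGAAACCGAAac

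**Figure D3:**
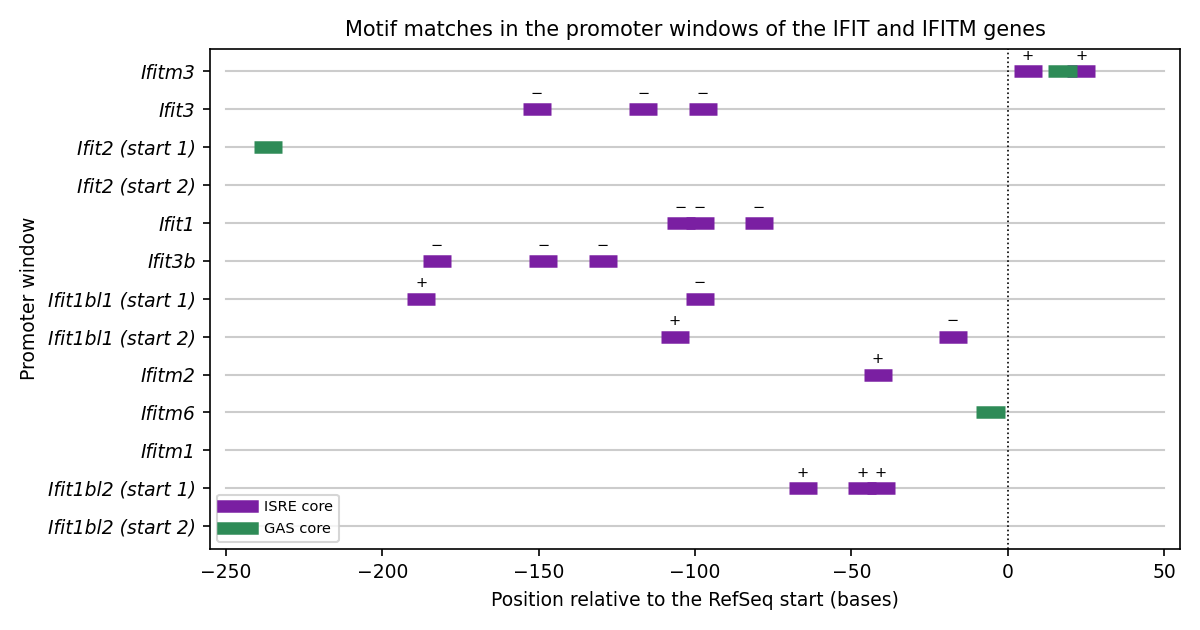
Matches of the ISRE core GAAANNGAA (purple, with + or − for the strand relative to the gene) and the GAS core TTCNNNGAA (green, the same on both strands) along the 13 promoter windows of the IFIT and IFITM genes, in bases from the RefSeq start (dotted line), with genes ordered by reads per kb. *Ifit3* and *Ifit3b* show the same spacing of 3 cores, and *Ifit2*, *Ifitm1* and *Ifitm6* show no ISRE core in the windows searched.

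The genes that act before the IFIT and IFITM genes were present. Among genes for ISGF3 and the IFN receptor, *Stat2* had 1122 CPM and *Ifnar1* had 562 CPM, or 5946 and 2974 reads per kb. Of the 13 IRFs and sensors upstream of IFN, 10 had at least 100 CPM, with a median of 2888 reads per kb, and *Irf7*, *Irf8* and *Ifih1* had the most reads. The IFN genes themselves were lower. Of *Ifnb1* and the *Ifna* genes, 14 in all, none reached 100 CPM, and their median was 272 reads per kb. *Ifna5* had the most reads (23.1 CPM), followed by *Ifna2* and *Ifnb1*, and *Ifna13* and *Ifna7* had fewer than 3 reads. Sequence shared among the *Ifna* genes was not searched. Whether reads that fit several of them were lost or split was not tested, so the levels of single *Ifna* genes are uncertain. The median of the 6 IFIT genes was 20258 reads per kb and that of the 4 IFITM genes 4400.

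Most other antiviral ISGs were also abundant. Of 25 such genes, 23 had at least 100 CPM, with a median of 5198 reads per kb, and *Usp18*, *Rsad2* and *Gbp2* had the most reads. When the 10 IFIT and IFITM genes were ordered with these 25 per kilobase, *Ifitm3* took place 1 of 35, *Ifit3* place 3, *Ifit2* place 4, *Ifit1* place 7 and *Ifit3b* place 9. *Ifit1bl1* took place 12, *Ifitm2* place 16 and *Ifitm6* place 30, and *Ifitm1* and *Ifit1bl2* closed the order. The group therefore lay at both ends of the antiviral genes and also between them.

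Genes of proteins that IFIT and IFITM proteins work with, or that write a cap mark, had lower medians per kilobase than the families. Of the 8 genes for IFIT partners and cap methylation, *Tmem173* (439 CPM), *Cmtr1* (385 CPM) and *Eif3c* (290 CPM) had the most reads. *Tmem173* encodes STING, and *Eif3c* encodes a subunit of the initiation factor eIF3 that IFIT proteins bind. The product of *Cmtr1* adds the 2′-O-methyl mark, which the caps bound by IFIT1 lack. The median of the 8 genes was 757 reads per kb. Of the 7 genes for IFITM partners, 2 had at least 100 CPM, *Vcp* (830 CPM) and *Vapa* (203 CPM), and *Nedd4*, the gene of a ubiquitin ligase that targets IFITM3, had 48.3 CPM. Their median was 138 reads per kb, against 4400 for the IFITM genes, although *Vcp* (5371 reads per kb) and *Vapa* (1824) lay above *Ifitm6* and *Ifitm1*.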

How the data were processed

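The authors deposited a normalized signal value per gene without a stated unit, from mRNA libraries sequenced as paired-end reads of 150 bases. The submitters' processing notes name HISAT2, StringTie and the builds mm8 and mm10 without roles or versions. Of the values above 0, 100% were whole multiples (tolerance 0.001) of a step of 1.19, and division by it gave whole numbers, taken here as reads. Recovery of the step was tested on 3 simulated libraries. That test cannot tell single reads from read pairs or estimated counts, and the intervals treat the numbers as counts of reads. The length column is the genomic span, so exon lengths came from GENCODE M21, to which 99.7% of gene IDs matched. Of the matched genes, 95.2% had the same GRCm38 coordinates, and so did 9 of the 10 members. The exception was *Ifit1bl1*, whose M21 exon length was used. Percentiles count ties by their midpoint. Ratios have exact binomial intervals. Shared windows were searched in all M21 transcripts on both strands. Planned protein alignments were replaced by global alignments of coding sequences (match 2, mismatch -1, gap opening -5, extension -1), because no protein table was used here. The members and lists were chosen with earlier results of these data known. Genes named are all members, other *Ifit* and *Ifitm* genes, the 5 genes on each side of and those within the clusters, and, of each list, the 3 with the most reads and those with fewer than 3 reads. Some markers under this rule are given by their sums alone, and some genes under it are not reported here. Python 3.11.15 was used with scipy 1.17.1, numpy 2.4.6, Biopython 1.88, pandas 2.3.3 and, for plots, matplotlib 3.10.9.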

Additional observations from a re-analysis of the deposited data

How the results depend on the processing

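The summed level of the 10 genes was 14694 CPM. It was 16280 CPM with the 10 genes with the most reads, *Ifit2* among them, left out of the total, and 15290 CPM with the total over protein-coding genes, both by construction of a smaller total. The share of the reads on IFIT genes was 72.9% without *Ifit2*, the member with the most reads, in place of 81.5%, and 54.3% by reads per kilobase, an alternative chosen after seeing the data. The number of genes at or above the threshold was 8 at 10 CPM and 6 at 500 CPM, in place of 7. Those levels of 10 and 500 CPM were reached by 44.4% and 1.88% of the genes with reads. The 7 genes with the ISRE core also had it followed by 1 more A, against 3.99% of all genes searched. This longer core occurred 2 or more times in a single window in 5 genes, in place of 6, against 0.266% of all genes searched.

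For single genes, percentiles over all genes listed were higher and those over genes with at least 10 reads lower for 10 of 10, by construction. *Ifit1bl2* moved from 53.1 to 84.2 and 42.7, and *Ifitm1* from 43.3 to 81.0 and 30.7. With the longest coding transcript, reads per kb moved beyond counting error for 4 of 10 genes, and with the coding length for 10 of 10, where *Ifit2* came before *Ifit3* and the ratio of *Ifitm3* to *Ifitm1* was 560 in place of 1167. Windows of 50 bases raised the shared share of 8 of 10 genes, to 51.2% for *Ifit3*. A pseudocount of 0.1 in place of 1 moved 1 of 10 log2 levels beyond counting error, that of *Ifitm1*, from 2.17 to 1.85.

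No paired analysis was possible because only A/A replicate 1 was analysed here. Depth limited *Ifitm1* and *Ifit1bl2*, whose ratio per kilobase had an interval of 1.04 to 1.65.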
